A study of Mus musculus with 17 samples.

Results

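The 9 genes described here, Msln, Upk3b, Wt1, Lrrn4, Upk1b, Gpm6a, Rspo1, Bnc1 and Muc16, are genes known from the mesothelium, and were followed by symbol through all 17 lung libraries of a Clic4 knockout series. They are 9 of 54146 genes in the files and 9 of the 19557 genes with enough counts to be tested. The lungs were Clic4 knockout (KO) or wild type (WT) and were taken at day 14 or at day 0: 5 KO and 6 WT lungs at day 14, and 2 KO and 4 WT lungs at day 0. All carry the strain label FVB/6DT1, in which FVB names a mouse strain and 6DT1 a line of mouse mammary tumour cells. Clic4 encodes chloride intracellular channel 4, and the series asks about its part in the host during metastasis. Day 14 lungs came from mice of 8 weeks and day 0 lungs from mice of 6 weeks, and day and age cannot be told apart. The labels do not give any treatment of the mice between the days, and they name neither how the Clic4 allele was made nor the tissue in which it is lost. They also tie no library to an animal, so p-values measure only the spread from library to library, which may be technical. Group sizes in the series' design text differ from those in the sample labels, and the labels were followed.

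The mesothelium is the single layer of flat cells that covers the lung as visceral pleura and also lines the other body cavities and their organs. These cells carry a glycoprotein coat and keratins, arise from mesoderm and are few beside the epithelial, endothelial and immune cells of a whole lung. The transcription factor Wt1 marks them in development, and mesothelin and the mucin MUC16, which bind each other in human cells, are known from their surface. In bulk tissue the mesothelial RNA of such genes reflects both how many mesothelial cells entered the sample and how much RNA each held. Fewer cells of a type and less RNA per cell cannot be told apart. No cells were separated here, so RNA of these genes from other cells of the lung cannot be told apart from it either.

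None of the 9 genes passed the test, an adjusted p under 0.05, between KO and WT lungs at either day or between the days in either genotype. At day 14 all 9 fold changes lay above 0, where 50.3% of all genes did, with Muc16 the highest, at 1.41-fold. Without KO day 14 library 2 their median on the log2 scale fell from 0.24 to 0.10, and Msln and Wt1 lay at -0.0045 and -0.04. At day 0 Upk1b and Muc16 were higher in both KO libraries than in all 4 WT libraries, as were 8.88% of all genes. Neither passed the test over all genes. The genes tended to move together from library to library, Wt1 and Bnc1 least, so their fold changes are not 9 separate observations. KO day 14 library 2 had the highest values of Msln, Upk3b, Upk1b, Lrrn4, Rspo1 and Bnc1 of all 17.

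The libraries held 20607811 to 35743830 expected counts each. Clic4 itself averaged 335.8 ± 38.6 counts per 1000000 counted (CPM) in KO lungs (SD, n = 5) and 1043 ± 154 CPM in WT lungs (n = 6) at day 14, and 325.9 ± 2.17 CPM in KO lungs (n = 2) and 943.3 ± 13.1 CPM in WT lungs (n = 4) at day 0. Every KO library lay below every WT library. Markers of lung epithelium, endothelium and leukocytes summed to between 32210 and 38244 CPM in every library, so the tissue was lung as labelled. Most of that sum was Scgb1a1 (group means 14953 to 16644 CPM) and Sftpc (11465 to 13755 CPM), both of lung epithelium. It thus says little about endothelium or leukocytes.

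The genes lie on 8 chromosomes of the GRCm38 assembly (mm10), with positions from GENCODE M21. Msln (ENSMUSG00000063011.6; chromosome 17, 25748613 to 25754378, minus strand) encodes mesothelin, a glycoprotein anchored in the cell membrane. Muc16 (ENSMUSG00000109564.1; chromosome 9, 18495455 to 18674530, minus strand) encodes a very large transmembrane mucin that in human carries the CA125 antigen. The uroplakin genes Upk3b (ENSMUSG00000042985.7; chromosome 5, 136038496 to 136046487, plus strand) and Upk1b (ENSMUSG00000049436.5; chromosome 16, 38773184 to 38800328, minus strand) belong to a group of membrane proteins best known from bladder epithelium, and Upk1b is a tetraspanin. Wt1 (ENSMUSG00000016458.14; chromosome 2, 105126529 to 105173616, plus strand) and Bnc1 (ENSMUSG00000025105.9; chromosome 7, 81966672 to 81992292, minus strand) encode zinc finger proteins of the nucleus. Rspo1 (ENSMUSG00000028871.7; chromosome 4, 124986430 to 125009099, plus strand) encodes R-spondin 1, a secreted protein that strengthens Wnt signalling. It lies 10.2 Mb from Clic4 on the same chromosome, the only one of the 9 on that chromosome. Lrrn4 (ENSMUSG00000043110.2; chromosome 2, 132868305 to 132880891, minus strand) encodes a membrane protein with leucine-rich repeats, and Gpm6a (ENSMUSG00000031517.8; chromosome 8, 54954843 to 55060871, plus strand) encodes the membrane glycoprotein M6a, best known from neurons.

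The sequence upstream of the start is shown for the pair that moved together most closely, Upk3b and Lrrn4, and for Muc16, which had the largest difference between genotypes at day 14. Promoter sequences from RefSeq (GRCm38.p6) matched 6 of the 9 genes by symbol, with 7 promoters. Each line gives the 250 bases before the RefSeq start in the direction of the gene. The windows are chr5:136038246-136038495 (plus strand) for Upk3b, chr2:132880863-132881112 (minus strand) for Lrrn4 and chr9:18674604-18674853 (minus strand) for Muc16. Only the Upk3b window ends at the GENCODE start given above. The Lrrn4 window reaches into the GENCODE gene, which begins at 132880891, and the Muc16 window stops short of the GENCODE start at 18674530. Capitals mark GGAATG or its reverse complement CATTCC, the core of the MCAT element that TEAD factors bind.
Upk3b: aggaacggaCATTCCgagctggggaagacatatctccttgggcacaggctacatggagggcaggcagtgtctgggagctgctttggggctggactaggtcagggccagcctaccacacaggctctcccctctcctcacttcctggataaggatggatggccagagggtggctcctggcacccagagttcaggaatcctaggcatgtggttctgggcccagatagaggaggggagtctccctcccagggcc
Lrrn4: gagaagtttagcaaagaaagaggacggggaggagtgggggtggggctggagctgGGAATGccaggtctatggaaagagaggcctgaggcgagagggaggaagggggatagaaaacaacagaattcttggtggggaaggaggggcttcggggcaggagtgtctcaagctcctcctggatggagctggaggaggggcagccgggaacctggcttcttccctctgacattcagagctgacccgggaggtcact
Muc16: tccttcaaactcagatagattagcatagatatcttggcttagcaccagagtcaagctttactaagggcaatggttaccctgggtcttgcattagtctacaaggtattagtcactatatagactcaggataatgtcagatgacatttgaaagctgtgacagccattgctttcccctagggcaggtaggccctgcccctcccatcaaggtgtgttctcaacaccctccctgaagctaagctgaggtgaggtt

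Upk3b held CATTCC from 241 to 236 bases before its RefSeq start, and Lrrn4 held GGAATG from 196 to 191 bases before its own RefSeq start. These letters occurred on either strand in 3 of the 7 promoters and in 12.6% of all 32851 promoters of the same length. The third was a promoter of Gpm6a at chr8:54779184-54779433, far before the Gpm6a start at 54954843 given above. The Gpm6a promoter next to that start, at chr8:54954478-54954727, did not hold them. The GC content was 60.8% for Upk3b, 59.2% for Lrrn4 and 46.4% for Muc16, against a median of 52.4% over all promoters. The WT1 core GCGTGGG, the WT1 and EGR sequence GCGGGGGCG and the CCAAT box, each searched on both strands, were in none of the 7 windows and in 4.304%, 2.57% and 33.8% of all promoters. TATAAA was in 1 of the 7, the promoter of Gpm6a next to the start given above (where it read TTTATA), and in 12.4% of all. GCGTGGG and GCGGGGGCG share their first letters, and no other motifs searched overlap.

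Levels between genes were compared per length, in the authors' FPKM (fragments per kilobase and per 1000000 fragments). Msln was the most abundant of the 9, with a mean of 64.2 FPKM over the 17 libraries, above 92.7% of the genes tested. Upk3b (34.4 FPKM) and Gpm6a (30.3 FPKM) came next, and their ranges overlapped, although Upk3b was the higher in 14 of 17 libraries. Rspo1 (12.0 FPKM), Lrrn4 (11.1 FPKM) and Upk1b (10.7 FPKM) did not separate from their neighbours: Rspo1 exceeded Lrrn4 in 10 of 17 libraries and Lrrn4 exceeded Upk1b in 9. Muc16 (6.65 FPKM) was below Upk1b within each of the 17 libraries though the ranges overlapped. Wt1 (2.80 FPKM) and Bnc1 (1.44 FPKM) were the lowest, with Wt1 above Bnc1 in each library. Msln over Upk3b, Gpm6a over Rspo1 and Muc16 over Wt1 were the steps at which no library of the lower gene reached any library of the higher. The depth behind the values ran from 2043 to 4635 counts a library for Msln, but from 93 to 263 for Wt1 and from 79 to 292 for Bnc1, so the last pair carried the widest counting error.

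Differences between groups were tested on counts with edgeR's quasi-likelihood test, with Benjamini-Hochberg adjustment over all 19557 genes. In KO against WT lungs at day 14, 0 of the 9 genes had an adjusted p under 0.05, as against 0.107% of all genes (21 genes). At an unadjusted p under 0.05 there were 2 of the 9, Muc16 and Upk1b, beside 8.95% of all genes. The fold change was above 0 for 9 of the 9 and for 50.3% of all genes, and its median on the log2 scale was 0.24 over the 9 and 0.00 over all. KO day 14 library 2 carried much of that median: without it the median was 0.10, and Msln and Wt1 lay at -0.0045 and -0.04. No member had every KO library above every WT library, a pattern found in 0.583% of all genes, and none had every KO library below every WT library, as 0.394% of all genes had.

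Msln had 134, 170.1, 107, 131 and 101 CPM in the 5 KO lungs at day 14, against 109 to 144 CPM with a median of 114 CPM in the 6 WT lungs. The KO lungs were the more spread out, holding both the highest and the lowest value of the 11, and the groups overlapped. The log2 fold change was 0.12 (SE 0.116, edgeR adjusted p = 0.812), a 1.09-fold level with a 95% interval of 0.927 to 1.27. At day 0 Msln had 139 and 119.9 CPM in KO lungs, against 113, 141, 129 and 113 CPM in WT lungs, a log2 fold change of 0.06 (SE 0.166, edgeR adjusted p = 0.969). The 95% interval of the fold of Msln, the most abundant of the 9, ran from 0.832 to 1.305 at day 0, wider than that at day 14. Both intervals use the normal quantile and are narrow for so few libraries. As single libraries were left out, the day 0 log2 fold change of Msln ran from -0.0506 to 0.16.

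Muc16, the mucin partner of mesothelin, stood furthest from WT at day 14. It had 30.03, 34.4, 26.0, 35.4 and 22.5 CPM in KO lungs, against 16.5 to 29.5 CPM with a median of 20.3 CPM in WT lungs. Of the WT libraries 5 lay below the lowest KO library, and library 5, the highest WT one, lay above KO libraries 3 and 5. The means were 29.7 ± 5.49 CPM in KO (SD, n = 5) and 21.03 ± 4.64 CPM in WT (n = 6). On the log2 scale the difference was 0.50 (SE 0.146), with an edgeR adjusted p of 0.331 and an unadjusted one of 0.00357. The fold was 1.41 with a 95% interval of 1.16 to 1.72. For the log2 CPM of this gene alone, an exact permutation test (two-sided) gave p = 0.0260, where the smallest that 462 splits allow is 0.00216; it is 1 of 36 such tests computed and was not adjusted over them. Over all settings tried its adjusted p ran from 0.0905, with DESeq2, to 0.670.

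At day 0 Muc16 had 24.8 and 26.3 CPM in KO lungs, against 15.6, 20.1, 18.5 and 22.9 CPM in WT lungs. Both KO values were above all 4 WT values, a pattern found in 8.88% of all genes. The log2 fold change was 0.41 (SE 0.208), with an edgeR p of 0.0669 before adjustment and 0.759 after it. The exact two-sided permutation test gave p = 0.133, and 15 splits cannot give less than 0.0667. The KO effect at day 14 minus that at day 0 was 0.09 on the log2 scale (SE 0.257, edgeR adjusted p = 0.997), so the data do not separate the effect at day 14 from that at day 0.

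The uroplakins Upk3b and Upk1b both averaged above WT in KO lungs at each day. Upk1b had 20.8, 23.6, 14.2, 18.6 and 16.7 CPM in KO lungs at day 14, against 13.1 to 17.6 CPM with a median of 14.9 CPM in WT lungs. KO libraries 1, 2 and 4 exceeded every WT library, and KO libraries 3 and 5 lay among them. The log2 fold change was 0.31 (SE 0.115, edgeR p = 0.0153, adjusted p = 0.431; fold 1.24, 95% interval 1.06 to 1.45), and the exact two-sided permutation test gave p = 0.0693. At day 0 it had 21.3 and 18.6 CPM in KO lungs, against 14.1, 14.6, 12.9 and 16.7 CPM in WT lungs. Both KO values were again above all WT values, the pattern of 8.88% of all genes. The day 0 log2 fold change was 0.45 (SE 0.162, edgeR p = 0.0118, adjusted p = 0.676; exact two-sided permutation p = 0.133).

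Upk3b had 134, 159, 98.7, 117 and 99.1 CPM in KO lungs at day 14, against 89.8 to 134 CPM with a median of 101 CPM in WT lungs. The groups overlapped over most of their range, with KO library 2 alone above every WT library. The log2 fold change was 0.21 (SE 0.126, edgeR adjusted p = 0.670), and 0.10 without KO library 2. At day 0 Upk3b had 143 and 122 CPM in KO lungs, against 104, 133, 109.8 and 108 CPM in WT lungs, a log2 fold change of 0.22 (SE 0.179, edgeR adjusted p = 0.848), or 0.10 without KO library 1. WT library 2 thus lay between the KO values.

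The zinc finger genes were the least abundant and the noisiest of the 9. Wt1 ran from 3.63 to 7.14 CPM in KO lungs (median 4.95), against 3.16 to 6.02 CPM in WT lungs (median 5.43), at day 14, and its log2 fold change was 0.04 (SE 0.185, edgeR adjusted p = 0.976). Bnc1 ran from 3.91 to 12.2 CPM in KO lungs (median 7.14), against 4.41 to 7.83 CPM in WT lungs (median 6.70), with a log2 fold change of 0.28 (SE 0.216, edgeR adjusted p = 0.756). KO day 14 library 2 held the top Bnc1 value, and without it the Bnc1 log2 fold change was 0.06. At day 0 Wt1 had 5.72 and 6.37 CPM in KO lungs, within the WT range of 5.57 to 8.00 CPM, and Bnc1 had 7.06 and 4.80 CPM in KO lungs against 4.70 to 6.31 CPM in WT lungs. Their day 0 log2 fold changes were -0.07 for Wt1 (SE 0.262, edgeR adjusted p = 0.977) and 0.16 for Bnc1 (SE 0.313, edgeR adjusted p = 0.951). The intervals of these folds were wide, from 0.665 to 1.36 for Wt1 and from 0.731 to 1.71 for Bnc1.

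Rspo1 encodes the one secreted ligand among the 9, which acts through Lgr receptors and the membrane ubiquitin ligases Rnf43 and Znrf3. It had 21.5, 21.9, 16.5, 20.7 and 15.7 CPM in KO lungs at day 14, against 13.7 to 18.8 CPM with a median of 16.4 CPM in WT lungs. KO libraries 1, 2 and 4 were again above every WT library. The log2 fold change was 0.24 (SE 0.134, edgeR adjusted p = 0.632; exact two-sided permutation p = 0.0823). At day 0 the KO lungs split, with 19.0 CPM in library 1, the highest of the 6 day 0 libraries, and 10.6 CPM in library 2, the lowest, against 13.8, 18.2, 17.2 and 16.1 CPM in WT lungs. The day 0 log2 fold change of -0.14 (SE 0.194, edgeR adjusted p = 0.925) turned on these libraries: it was -0.63 without KO library 1 and 0.22 without KO library 2.

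Lrrn4 had 46.7, 53.8, 34.9, 40.9 and 33.5 CPM in KO lungs at day 14, against 29.6 to 45.4 CPM with a median of 32.9 CPM in WT lungs. Of the WT libraries 4 lay below every KO library, and the log2 fold change was 0.27 (SE 0.134, edgeR adjusted p = 0.584), or 0.16 without KO library 2. At day 0 it had 52.8 and 39.8 CPM in KO lungs, against 35.1, 44.2, 33.9 and 41.4 CPM in WT lungs, a log2 fold change of 0.26 (SE 0.189, edgeR adjusted p = 0.825). Without KO day 0 library 1 it was 0.04 and without KO day 0 library 2 it was 0.45. Gpm6a, the steadiest of the 9, had 87.3, 102, 82.9, 92.4 and 91.7 CPM in KO lungs at day 14, against 76.6 to 111 CPM with a median of 83.1 CPM in WT lungs. Its log2 fold change was 0.07 (SE 0.0793, edgeR adjusted p = 0.854), with a 95% interval of the fold from 0.94 to 1.17, and it was 0.02 without KO library 2. At day 0 Gpm6a had 97.1 and 87.3 CPM in KO lungs, against 91.8, 104.9, 97.0 and 104.5 CPM in WT lungs, a log2 fold change of -0.11 (SE 0.114, edgeR adjusted p = 0.892).

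**Figure D1:**
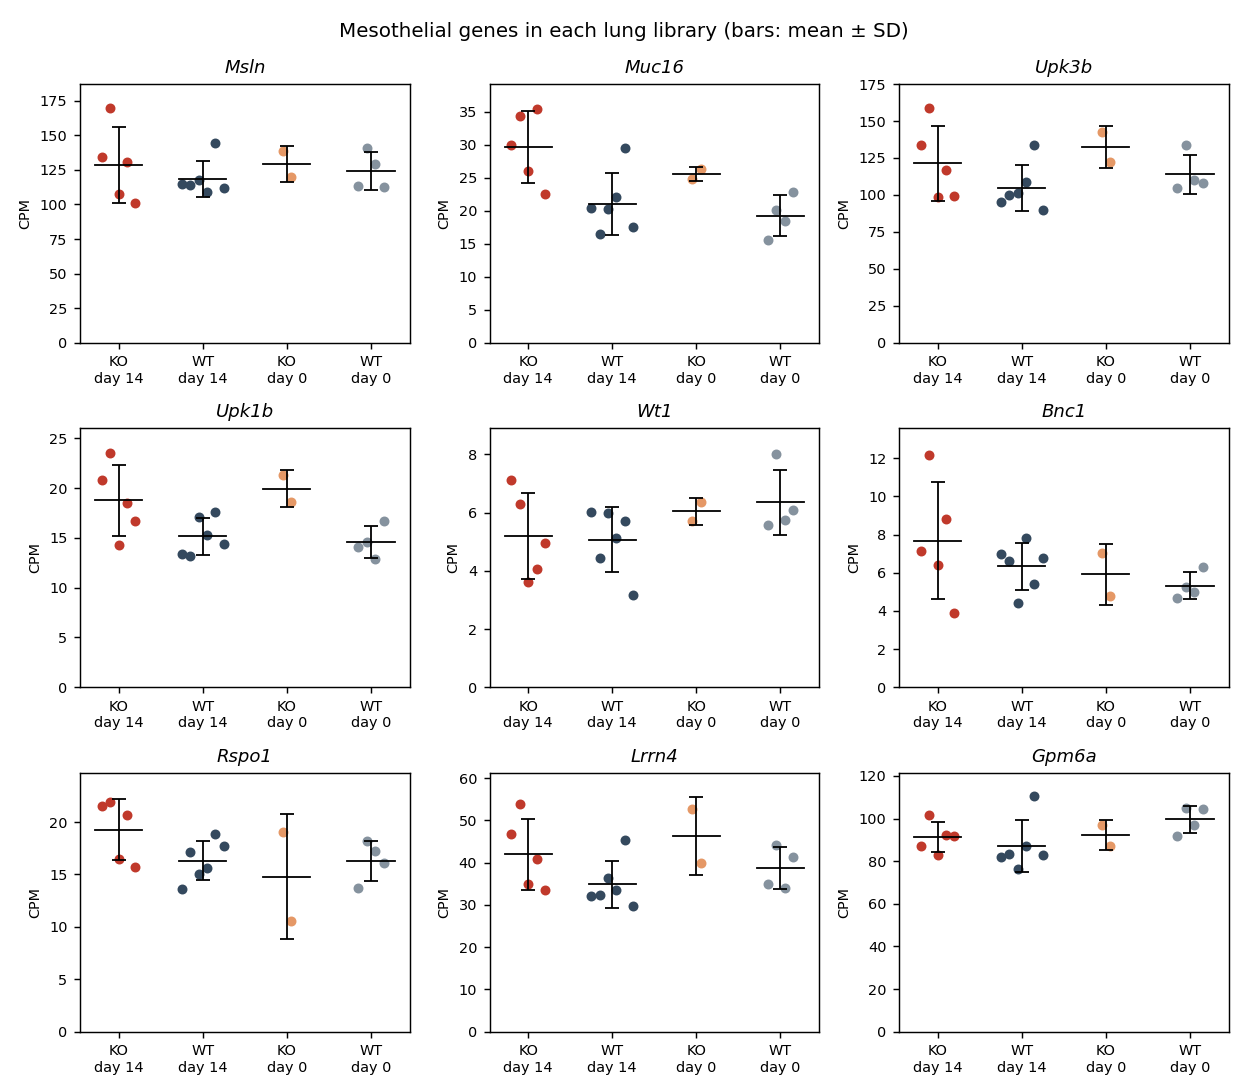
Counts per 1000000 counted (CPM, y axis, from 0) of the 9 mesothelial genes, 1 panel a gene, with 1 point a library for KO day 14 (n = 5), WT day 14 (n = 6), KO day 0 (n = 2) and WT day 0 (n = 4); horizontal lines are means and bars SD. Muc16 lies at 22.5 to 35.4 CPM in KO and 16.5 to 29.5 CPM in WT lungs at day 14. At day 0 both KO points lie above the 4 WT points, as in 8.88% of all genes.

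Over the 9 genes at day 0, 0 of the 9 genes were called between KO and WT lungs by edgeR, beside 0.0256% of all genes (5 genes), and 1 of the 9, Upk1b, had an unadjusted p under 0.05, beside 6.74%. The fold change was above 0 for 6 of the 9 and for 50.2% of all genes, with a median of 0.16 on the log2 scale. That median turned on the KO libraries: it was 0.0012 without KO day 0 library 1 and 0.32 without KO day 0 library 2. Upk1b and Muc16 had both KO libraries above all 4 WT libraries, 2 of 9 genes where 8.88% of all genes did so, and 0 of the 9 were lower in this way, where 9.12% of all genes were. With groups this small such a separation was common. The KO effect at day 14 minus that at day 0 was called for 0 of the 9 and 0% of all genes by edgeR (unadjusted p under 0.05 for 0 of the 9 and 4.55% of all genes; 9 genes of all called by DESeq2, none of them a member). It was above 0 for 7 of the 9 and for 51.1% of all genes. For Rspo1 it was 0.38 on the log2 scale (SE 0.237, edgeR adjusted p = 0.988), but 0.87 without KO day 0 library 1 and 0.02 without KO day 0 library 2.

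**Figure D2:**
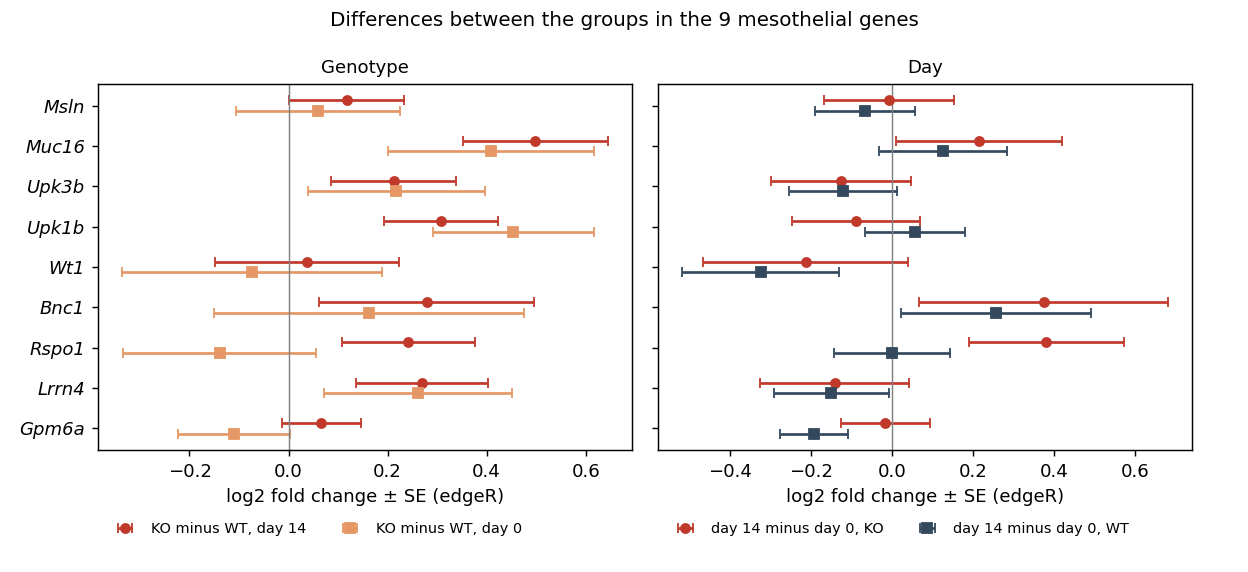
Log2 fold changes (x axis) with SE from edgeR for the 9 genes (y axis), KO minus WT at each day on the left and day 14 minus day 0 in each genotype on the right. All 9 day 14 genotype values lie above 0, from 0.04 for Wt1 to 0.50 for Muc16, and none of the values shown had an adjusted p under 0.05.

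Between the days, each set of libraries was compared within a genotype, and both comparisons share libraries with the genotype comparisons above. In KO lungs, 0 of the 9 genes were called between day 14 and day 0 by edgeR and 0% of all genes (93 genes of all by DESeq2, none of them a member), and 0 of the 9 had an unadjusted p under 0.05, beside 9.05% of all genes. Rspo1 averaged 19.3 ± 2.94 CPM in KO lungs at day 14 (SD, n = 5) and 14.8 ± 5.98 CPM at day 0 (n = 2), a log2 fold change of 0.38 (SE 0.190, edgeR adjusted p = 0.574). That value ran from 0.02 to 0.87 as single libraries were left out, the higher one without KO day 0 library 1 and the lower one without KO day 0 library 2. The other 8 genes lay between -0.21 (Wt1) and 0.37 (Bnc1) on the log2 scale, and 3 of the 9 were above 0, as were 52.6% of all genes. No member had every day 14 library above, or every one below, both day 0 libraries, which 5.6% and 6.2% of all genes had.

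In WT lungs, edgeR called 0 of the 9 genes and 0% of all genes between day 14 and day 0 (113 genes of all by DESeq2, none of them a member), and 1 of the 9 had an unadjusted p under 0.05, beside 9.06% of all genes. That gene was Gpm6a, with 76.6 to 111 CPM at day 14, against 91.8 to 104.9 CPM at day 0. All WT day 14 libraries except library 5 lay below every day 0 library. On the log2 scale the difference was -0.19 (SE 0.0841), with an edgeR adjusted p of 0.512 and an unadjusted one of 0.0343. Without library 5 it was -0.27, with an edgeR adjusted p of 0.0722, the lowest of any of the 9 genes in any comparison and setting; the highest for this difference was 0.729. Wt1 averaged 5.08 ± 1.11 CPM at day 14 (SD, n = 6) and 6.36 ± 1.12 CPM at day 0 (n = 4), a log2 fold change of -0.32 (SE 0.194, edgeR adjusted p = 0.624). Rspo1 had a mean of 16.3 CPM at both days. Of the 9 genes 4 had a fold change above 0, beside 50.4% of all genes, and none had every day 14 library above or below every day 0 library, as 1.2% and 1.38% of all genes had.

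The 9 genes tended to move together from library to library. Taking each gene's log2 CPM minus its own mean over the 17 libraries and averaging over the 9 genes, KO day 14 libraries 1 to 5 stood at 0.25, 0.47, -0.14, 0.16 and -0.17, against -0.13, -0.18, -0.13, -0.06, 0.17 and -0.24 in WT day 14 libraries 1 to 6. At day 0 the averages were 0.22 and -0.04 in KO libraries, against -0.20, 0.10, -0.10 and 0.03 in WT libraries. In KO day 14 library 2 and KO day 0 library 1, 9 of 9 genes were above their own mean, while in WT day 14 library 4 only 1 was. WT day 14 library 5 stood above the other WT libraries of its day, with 8 of 9 genes above their mean. The ranges of the averages overlapped between KO and WT lungs at each day.

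**Figure D3:**
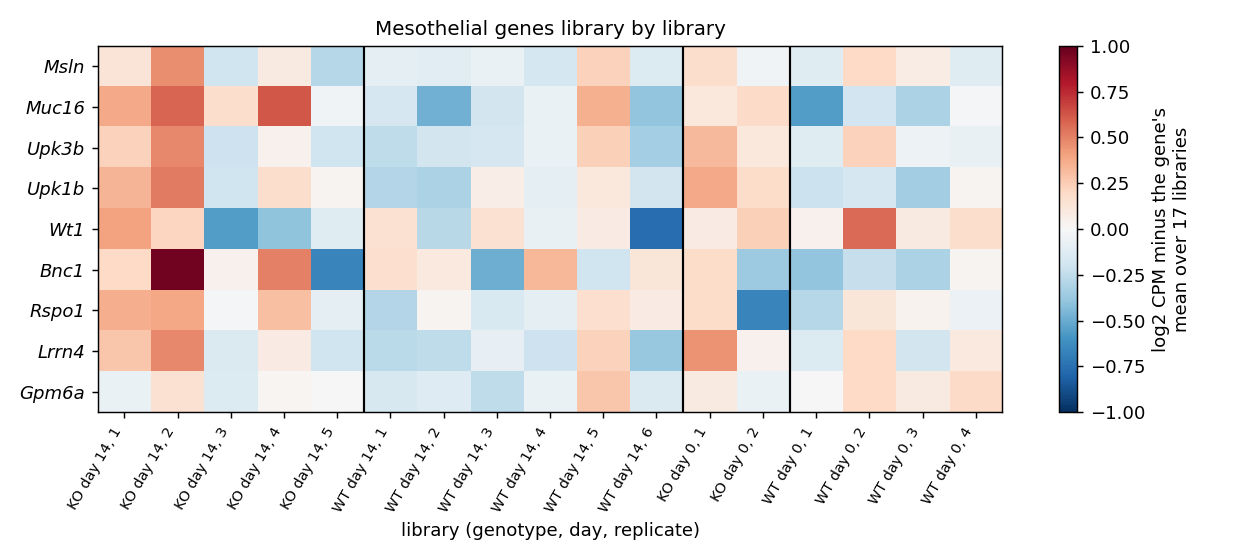
Each gene's log2 CPM minus its mean over the 17 libraries (colour scale, -1 to 1), with genes in rows and libraries in columns, grouped by genotype and day. KO day 14 library 2 is above the mean for all 9 genes, by 0.15 (Gpm6a) to 0.96 (Bnc1).

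Over the 36 pairs of the 9 genes, Pearson's r of log2 CPM across the 17 libraries had a median of 0.510 and was above 0 in 34 pairs. The closest pair was Upk3b and Lrrn4, whose upstream sequences are printed above, with r = 0.949 (Spearman's rho 0.885), and 0.917 without the 2 libraries farthest from the median. Msln joined them, with r = 0.894 to Upk3b and 0.827 to Lrrn4, and Muc16 was closest to Upk1b, at 0.790. Wt1 and Bnc1, the genes with the fewest counts, were the pair least alike, at -0.141. After subtracting each group's mean the median r was 0.623 and 36 of 36 pairs lay above 0, so the likeness was within groups and not only between them. With group means kept in, and without the 2 libraries farthest from the median of 1 gene of each pair, the median r was 0.368 and 33 of 36 pairs lay above 0, the lowest at -0.12. These values describe 17 libraries that share tissue and preparation, and the pairs share genes.

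**Figure D4:**
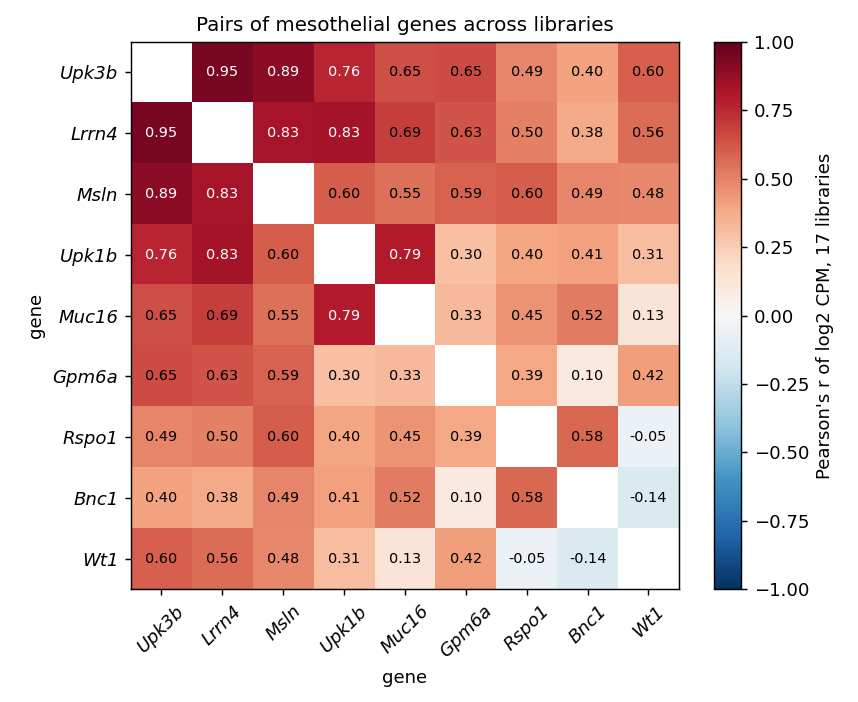
Pearson's r of log2 CPM across the 17 libraries for each pair of genes (rows and columns, colour scale -1 to 1). Upk3b, Lrrn4, Msln, Upk1b and Muc16 form the block of high values, from 0.55 (Msln and Muc16) to 0.95 (Upk3b and Lrrn4), and Wt1 with Bnc1 is the lowest at -0.14.

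Set against the mean of the other 8 genes, r was 0.912 for Upk3b, 0.911 for Lrrn4 and 0.852 for Msln, and 0.767 for Upk1b and 0.695 for Muc16. Rspo1 (0.549), Gpm6a (0.531), Bnc1 (0.442) and Wt1 (0.297) followed less closely, and Bnc1 fell to 0.077 without the 2 farthest libraries. The spread within groups, as SD of log2 CPM, ran from 0.140 for Gpm6a to 0.404 for Bnc1. The median over all genes tested was 0.187, and 0.128 over the 10419 genes in the same range of CPM as the 9.

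Likeness was ranked over 13660 other tested protein-coding genes with a mean of at least 1 CPM. Clone names, Gm and Rik names and antigen receptor segments were left out. The 10 whose log2 CPM followed the average of the 9 most closely began with Rarres2 (r = 0.909), Igfbp5 (0.892), Sulf1 (0.850), Tbx18 (0.845) and Pkia (0.812). Gpc3 (0.796), C2 (0.795), Aldh1a2 (0.792), Efemp1 (0.776) and Enpp5 (0.776) completed the 10. The median r over all these genes was 0.007, and 39 exceeded 0.7. Rarres2 encodes the secreted chemoattractant chemerin, Igfbp5 a binding protein of insulin-like growth factors, and Sulf1 an extracellular sulfatase. Aldh1a2, which makes retinoic acid and is known from mesothelium, was on the list of further mesothelial genes as well. The other tested genes of that list ran from r = 0.740 (Tmem151a) down to 0.299 (Myrf) and -0.028 (Prg4). None of the 10 was called between KO and WT lungs at either day. The ranking depended on how likeness was measured: 4 of the 10 were also in the top 10 by Spearman's rho, 6 with group means subtracted, 3 without the 2 farthest libraries and 4 without KO day 14 library 2, both of the last settings chosen after seeing the data.

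A list of 9 further mesothelial genes (Calb2, Aldh1a2, Nkain4, Dmkn, Cldn15, Prg4, Myrf, Tmem151a and Itln1) was set beside the members. Calb2, a marker of human mesothelium, was listed at a mean of 0.0165 FPKM and had too few counts to be tested. Of the other 8, 0 were called by edgeR in any of the 5 comparisons. At day 14, 7 of the 8 had a KO over WT fold change above 0 (median log2 0.22), beside 50.3% of all genes. Prg4, named after its values were seen, was the exception. At day 0 all 8 did (median 0.21), beside 50.2% of all genes. These values come from the same libraries as those of the 9 and are not separate observations. The most abundant per length were Nkain4, at 34.7 ± 2.43 FPKM in KO lungs (SD, n = 5) and 30.1 ± 1.53 FPKM in WT lungs (n = 6) at day 14 (log2 0.18 on counts, SE 0.0577, edgeR adjusted p = 0.390), and Myrf, at 18.2 ± 1.43 FPKM in KO lungs and 17.5 ± 1.12 FPKM in WT lungs (log2 0.06, SE 0.0543, edgeR adjusted p = 0.794). Itln1, a secreted lectin, was singled out after its values were seen: it ran from 6.70 to 51.9 CPM in KO lungs and from 5.95 to 12.5 CPM in WT lungs at day 14 (log2 1.18, SE 0.534, edgeR adjusted p = 0.542).

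The summed level of these further genes was 190.0 to 257 CPM in KO lungs and 172 to 188 CPM in WT lungs at day 14, and 230.4 to 235 CPM in KO lungs and 171 to 194 CPM in WT lungs at day 0. Itln1 was then left out, a choice made after its values were seen. Without it the day 14 sums overlapped, at 180.0 to 205 CPM in KO lungs and 159 to 181 CPM in WT lungs. At day 0 they were 176 to 215 CPM in KO lungs and 163 to 174 CPM in WT lungs, without overlap. The lowest KO sum, 175.6 CPM, lay just above the highest WT sum, 174.2 CPM. Of single genes, 8.88% had both KO libraries above all 4 WT libraries at day 0. The summed level of the 9 members was 389 to 583 CPM in KO lungs and 374 to 511 CPM in WT lungs at day 14. At day 0 it was 436 to 509 CPM in KO lungs and 398 to 490 CPM in WT lungs, and the groups overlapped at both days. Across the 17 libraries, r between the log2 sum of the further genes and the average of the 9 was 0.693, whereas it was -0.003 for Pdpn, Krt7, Krt8, Krt18 and Krt19, which mesothelium shares with lung epithelium.

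The receptors and ligases through which R-spondins act, with Wnt receptors and targets (Lgr4, Lgr5, Lgr6, Rnf43, Znrf3, Fzd5, Lrp5, Lrp6, Axin2, Nkd1 and Lef1), were all tested, and 0 of 11 were called by edgeR in any comparison. At day 14, 3 of 11 had a KO over WT fold change above 0 (median log2 -0.04), beside 50.3% of all genes, while Rspo1 itself was at 0.24. At day 0, 7 of 11 were above 0 (median 0.02), beside 50.2% of all genes. The most abundant per length were the Wnt target Nkd1, at 87.3 ± 5.20 FPKM in KO lungs (SD, n = 5) and 88.9 ± 11.5 FPKM in WT lungs (n = 6) at day 14, and the Wnt coreceptor Lrp5, at 37.1 ± 1.58 FPKM in KO lungs and 39.97 ± 2.44 FPKM in WT lungs. Their log2 fold changes on counts were -0.06 (SE 0.0847, edgeR adjusted p = 0.876) and -0.10 (SE 0.0519, edgeR adjusted p = 0.603).

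Other tissue in the samples also differed between libraries. Heart and pulmonary vein muscle genes (7 of 7 tested) summed to 720.0 to 1142 CPM in KO lungs and 967.95 to 1774 CPM in WT lungs at day 14, the top value in WT library 5, which was also the highest WT library of that day for 7 of the 9 genes, the exceptions being Wt1 and Bnc1. Fibroblast genes (6 of 6) summed to 1592 to 2492 CPM in KO lungs and 1517 to 1960 CPM in WT lungs at day 14, with the top in KO library 2, which also led the mesothelial genes. Adipose genes (7 of 7) summed to 25.6 and 83.2 CPM in the KO day 0 libraries, against 18.3 to 25.5 CPM in WT day 0 lungs, and the library at 83.2 CPM was the one with 10.6 CPM of Rspo1. Across libraries, r with the average of the 9 genes was -0.203 for heart muscle, 0.372 for fibroblast, -0.004 for adipose, -0.243 for lymph node and B cell, 0.437 for lung and -0.299 for total counts. Krt4, Krt13, Krt6a, Snap25, Tubb3 and Myh4, which mark oesophagus and airway epithelium, nerve and skeletal muscle, were under 1 CPM in every library. The part of the other tissues in the results on the 9 genes was not tested.

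The same comparison in FPKM can differ from that in counts where the estimated mix of transcripts changes, since FPKM divides by the effective length of that mix. The length implied by counts and FPKM was the same in every library to within 1.01-fold for Msln (1.93 kb), Upk3b (3.35 kb), Lrrn4 (3.53 kb), Gpm6a (3.03 kb) and Bnc1 (4.46 kb). It ran from 2.87 to 4.43 kb for Muc16, whose 4 annotated coding transcripts are 1035 to 25437 bases long, from 1.22 to 1.66 kb for Rspo1, from 1.80 to 2.22 kb for Wt1 and from 1.45 to 1.68 kb for Upk1b. For Upk1b it was 1.45 to 1.495 kb in KO lungs and 1.49 to 1.63 kb in WT lungs at day 14. The implied Muc16 length was thus far shorter than the longest transcript in GENCODE M21, which may not be the authors' release. An average over transcripts does not show which of them held most of the reads. The implied length changed between libraries without separating the groups (3.17 to 4.14 kb in KO lungs and 3.27 to 3.76 kb in WT lungs at day 14). On the log2(FPKM + 1) scale the Muc16 difference of KO from WT was 0.36 at day 14 and 0.52 at day 0, against 0.50 and 0.41 on counts. With a pseudocount of 0.1 the values were 0.40 and 0.59, so the scales differ by more than the length. None of these differences was called.

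**Figure D5:**
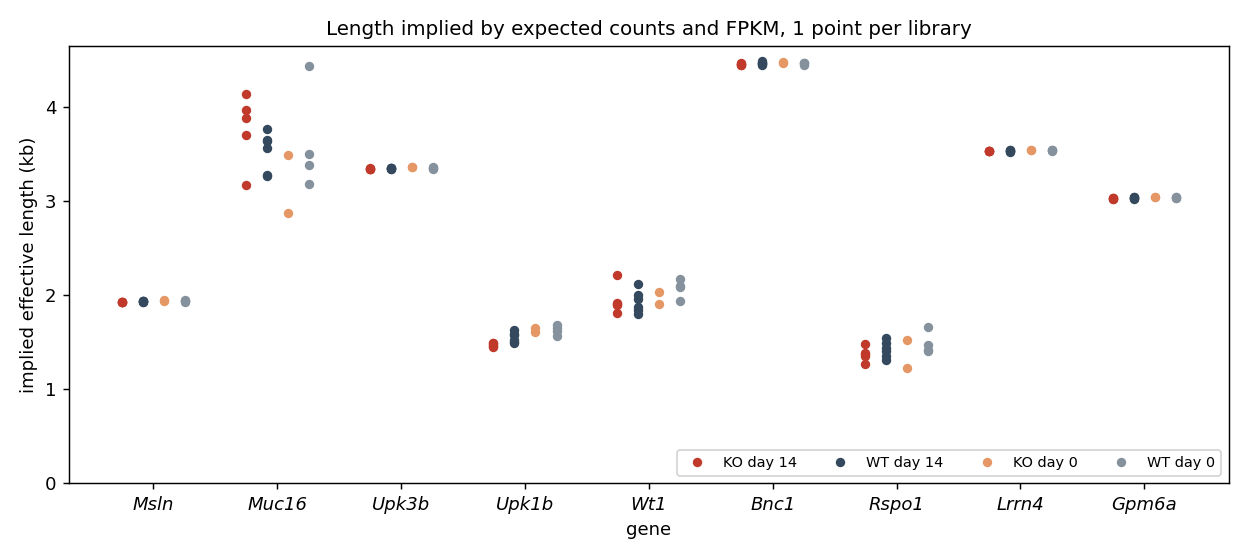
Effective length in kilobases (y axis) implied by the expected counts and FPKM of each gene (x axis), 1 point a library, coloured by group. Muc16 spreads from 2.87 to 4.43 kb and Rspo1, Wt1 and Upk1b spread less, while the other 5 genes stay within 1.01-fold.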

How the data were processed

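The deposited files hold expected counts per gene, 1 column a library, and a joint table of FPKM, both made by the authors. Per the submitters' processing notes, RSEM 1.3.0, STAR 2.5.3 and also limma 3.38.3 were used, and the build was mm10. Total RNA was taken with Qiagen RNeasy, and the libraries are of the Illumina TruSeq v4 type, per the labels. Whether counting used strand, the annotation release and any filter are not given in the sources used here. The count unit was read from the values, of which 13.9 to 17.1% in a library were not whole.

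The 9 genes were found by symbol in the FPKM table and joined to the counts by gene ID. Their choice, and that of every other list, was made with earlier results of these data known. Expected counts were rounded, filtered with filterByExpr to 19557 genes and scaled by TMM factors (0.977 to 1.01). They were fitted in 1 edgeR 4.0.16 model of 4 groups in R 4.3.3 (estimateDisp, robust glmQLFit, glmQLFTest; common biological coefficient of variation 0.152). A gene was called under an adjusted p of 0.05 (Benjamini-Hochberg over all genes tested). SE is the log2 fold change over the square root of F, and 95% intervals use the normal quantile, so they are narrow for so few libraries. CPM are counts per TMM-scaled library size, and log2 CPM has a prior count of 2. DESeq2 1.42.0, limma-voom and limma-trend (limma 3.58.1) on log2(FPKM + 1), with genes at 1 FPKM or more in at least 2 libraries, were alternatives. All 9 genes were always named; of other lists, called members or otherwise the 2 with the highest FPKM; and the 10 genes most like the average of the 9. The exact permutation tests used scipy 1.17.1. The code was checked on simulated data. Positions come from GENCODE M21 (GRCm38), in which 54079 of the gene IDs were found when version suffixes were dropped. One gene of the family relatives, and counts over that list, are not reported here.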

Additional observations from a re-analysis of the deposited data

Results flagged for a closer look

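Within groups of 4 to 6 libraries, a single library stood apart from the rest of its group, by a gap wide beside the group's whole range, for 2 of the 9 genes. Both cases were WT day 14 library 5. Msln stood at 144 CPM there, against 109 to 118 CPM in the other 5 WT day 14 libraries, a gap of 0.747 of the range. Gpm6a stood at 111 CPM, against 76.6 to 87.3 CPM in the other 5, a gap of 0.687. Of 27 groups looked at, chance gives about 1 in 20. The same library had the highest sum of heart and pulmonary vein muscle genes, at 1774 CPM, and the highest adipose sum of the WT day 14 libraries, at 49.9 CPM; their part in these values was not tested. Without it, the KO over WT log2 fold change at day 14 was 0.18 for Msln (edgeR adjusted p = 0.665) and 0.14 for Gpm6a (edgeR adjusted p = 0.469), against 0.12 and 0.07 with it. Over all settings tried these adjusted p-values ran from 0.665 to 0.995 for Msln and from 0.469 to 0.968 for Gpm6a.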

How the results depend on the processing

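The choices were changed 1 at a time: DESeq2, limma-voom, limma-trend on FPKM and the other scalings and filters ran on all libraries of the comparison, and single libraries were left out with edgeR only. Under none of these settings was any of the 9 genes called in any comparison, and the median day 14 genotype difference stayed above 0 (0.10 to 0.30 as single libraries were left out, lowest without KO day 14 library 2; 0.20 to 0.24 otherwise). No paired analysis was possible because the labels give the groups no shared replicate numbers. Small differences changed sign. On log2(FPKM + 1), with or without its filter, Wt1 at day 0 was 0.00152, and between the days in KO Upk1b was 0.037 and Muc16 -0.0459; with a pseudocount of 0.1 these were 0.00495, 0.0386 and -0.0543. The Muc16 difference between the days' KO effects was -0.16 on log2(FPKM + 1) and -0.18 with 0.1. With library totals only, Rspo1 between the days in WT was -0.0114 and the Upk3b difference between the days' KO effects 0.0023; limma-voom gave -0.00515 for that Rspo1 value. As single libraries were left out, the KO minus WT value at day 14 ran from -0.0045 to 0.19 for Msln and from -0.10 to 0.15 for Wt1, and at day 0 from -0.0506 to 0.16 for Msln, from -0.14 to 0.41 for Bnc1, from -0.63 to 0.22 for Rspo1 and from -0.15 to 0.0579 for Wt1. Day 14 minus day 0 ran in KO from -0.14 to 0.10 for Msln, from -0.0871 to 0.0626 for Gpm6a, from -0.33 to 0.076 for Lrrn4 and from -0.19 to 0.0116 for Upk1b, and in WT from -0.13 to 0.0023 for Msln and from -0.0754 to 0.0595 for Rspo1. The difference between the days' KO effects ran from -0.13 to 0.42 for Bnc1, -0.18 to 0.22 for Lrrn4, -0.0713 to 0.17 for Msln, -0.0052 to 0.20 for Muc16, -0.13 to 0.11 for Upk3b and -0.0334 to 0.22 for Wt1. None of these values was called, and the cause of the changes was not tested.

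Over all genes the counts called moved more. DESeq2 called 109 (KO against WT at day 14; 21 by edgeR), 26 (day 0; 5 by edgeR), 93 (days in KO; 0 by edgeR), 113 (days in WT; 0) and 9 (difference between the days; 0). At day 0 limma-voom called 3, log2(FPKM + 1) with no filter 17 and the 2 groups alone 13. For the days in KO, log2(FPKM + 1), the 0.1 pseudocount, no FPKM filter and the 2 groups alone gave 4, 4, 19 and 2. For the days in WT, limma-voom, RLE size factors and no count filter gave 1, 3 and 5. For the difference between the days, library totals, log2(FPKM + 1), the 0.1 pseudocount and no FPKM filter gave 1, 4, 3 and 7. Leaving out single libraries gave 2 to 7 at day 0, 0 to 12 for the days in KO, 0 to 22 for the days in WT and 0 to 1 for the difference. The limits are 2 KO libraries at day 0, 79 to 292 counts a library for Bnc1 and 93 to 263 for Wt1.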

Other observations

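Relatives of the 9 genes by family were tested in the same fit. Mslnl, Upk2, Upk3a, Lrrn1 and Rspo2 were under 1 CPM in every library. The most abundant per length were Muc1, an epithelial mucin, at 142 ± 20.4 FPKM in KO lungs (SD, n = 5) and 134 ± 8.85 FPKM in WT lungs (n = 6) at day 14, and the membrane protein Gpm6b, at 24.9 ± 1.86 FPKM in KO lungs and 23.7 ± 1.87 FPKM in WT lungs. Their log2 fold changes on counts were 0.08 (SE 0.0610, edgeR adjusted p = 0.734) and 0.05 (SE 0.0694, edgeR adjusted p = 0.864).

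Of Pdpn, Krt7, Krt8, Krt18 and Krt19, genes of mesothelium that lung epithelium also expresses, 0 of 5 were called in any comparison. A KO over WT fold change above 0 was seen for 1 of 5 at day 14 (median log2 -0.09), beside 50.3% of all genes. At day 0 it was seen for 2 of 5 (median -0.04), beside 50.2% of all genes. Krt19 stood at 144 ± 11.3 FPKM in KO lungs (SD, n = 5) and 140.2 ± 3.46 FPKM in WT lungs (n = 6) at day 14, and Krt7 at 125 ± 6.13 FPKM in KO lungs and 132 ± 10.5 FPKM in WT lungs. These keratins were more abundant per length than Msln, the highest of the 9 genes, in every library: their lowest values over the 17 were 124 and 118 FPKM, against a highest value of 86.7 FPKM for Msln.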
